A study of Mus musculus with 12 samples.

Results

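The genes that store cellular iron as ferritin, release it again and read its level were followed in mouse colonic epithelial organoids (colonoids) given hemin, an oxidized and chloride-bound form of heme. They are the 8 rows named Fth1, Ftl1, Ncoa4, Ireb2, Aco1, Fbxl5, Pcbp1 and Pcbp2 in a table of 54532 genes, and they were picked by name and role, not by level. The data are 12 poly-A mRNA libraries from 4 groups of 3. Control colonoids came from Hmox1 fl/fl mice, whose Hmox1 alleles are flanked by loxP sites and which carry no Cre by their label. The other colonoids, labelled KO, came from mice that carry the same floxed alleles with Vil1-Cre (Hmox1ΔIEC), in which the villin promoter drives Cre in intestinal epithelial cells. Replicate 3 of the KO label with hemin is written Hmox1 fl/fl /Vil1 Cre in the genotype label, and the other libraries with that label as Hmox1 KO /Vil1 Cre. Each genotype was given vehicle or 200 µM hemin for 24 hours, and all colonoids grew in L-WRN conditioned medium. No label says whether the replicates were separate cultures or animals, so p-values measure the spread between these libraries, which may be technical.

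Ferritin is a hollow protein shell built of heavy (Fth1) and light (Ftl1) chains, in which the heavy chain oxidizes ferrous iron and the light chain helps the mineral core to form. NCOA4 is the cargo receptor that carries ferritin to the lysosome, where the stored iron is set free (ferritinophagy). The iron regulatory proteins IRP1 (Aco1) and IRP2 (Ireb2) bind RNA hairpins called iron-responsive elements when iron is scarce, which blocks translation when the hairpin lies in the 5′ UTR and slows mRNA decay when it lies in the 3′ UTR. FBXL5 marks IRP2, and IRP1 without its iron-sulfur cluster, for degradation when iron is plentiful, and PCBP1 and PCBP2 are chaperones that hand iron to ferritin. HO-1, the product of Hmox1, frees iron from heme. Ferritin genes are also transcribed under NRF2, and heme releases their repressor BACH1. FPKM reads the amount of mRNA and not its translation, its protein or iron.

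The hairpins that the iron regulatory proteins bind are shown because Fth1 and Ftl1 carry them at the head of their mRNA while Tfrc, the transferrin receptor, carries several at the tail. They were read from GENCODE M21 transcripts on GRCm38, written as DNA, 5′ to 3′ on the mRNA strand, with the first 5 bases of the loop in capitals. Fth1 carries its hairpin at chr19:9982733-9982760 on the plus strand and Ftl1 at chr7:45459779-45459806 on the minus strand, both in the 5′ UTR. Slc40a1 (ferroportin, the iron exporter) carries 1 in its 5′ UTR at chr1:45925465-45925492 on the minus strand. Of the 4 that the search described below found in the 3′ UTR of Tfrc, 2 are shown, at chr16:32631220-32631247 and chr16:32631711-32631738 on the plus strand.
Fth1: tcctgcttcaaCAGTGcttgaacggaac
Ftl1: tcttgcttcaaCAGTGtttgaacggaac
Slc40a1: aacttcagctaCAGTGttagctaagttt
Tfrc first site: attatcggaagCAGTGccttccataatt
Tfrc last site: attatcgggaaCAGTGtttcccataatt
The Fth1 and Ftl1 elements were identical at 26 of 28 bases. Counted from 1 at the 5′ end of the stretch shown, with the Fth1 base first, the differences were C3T and C17T. The search was for CNNNNNCAGTGN on the mRNA strand with all 5 bases before the loop able to pair with the 5 after it, G-T pairs included. It found such a match in the 5′ UTR of 31 of 21901 protein-coding genes (0.142%) and in the 3′ UTR of 0.589%. No other of the 8 genes had a match anywhere in the transcript examined, and 3 of 6 other mRNAs known to carry an iron-responsive element had one. A match is a description of letters and pairing, not of binding, and Slc11a2, Epas1 and Cdc14a were not found by it.

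Hmox1, the targeted gene, was measured first as a check of the labels. With vehicle its FPKM was 7.62, 6.85 and 7.90 in control colonoids and 3.14, 2.11 and 2.31 in those labelled KO. With hemin it was 503, 483 and 382 in control and 1279, 1393 and 1271 in those labelled KO, which goes against the label at the level of the whole gene. Gene-level FPKM does not tell transcripts with the floxed segment from those without it. KO below therefore means the libraries labelled KO, and every direction between genotypes rests on that label. The libraries held 11648801 to 25101868 fragments on genes. All 8 genes passed the filter on low values (3 or more libraries with an FPKM of 1 or above, which left 12740 genes), and the smallest count behind any of their values was 908 fragments, for Fbxl5, at which counting error alone is 3.32%. FPKM is per kilobase of the deposited gene length, which can differ from that of the mRNA made. Levels of different genes therefore compare only roughly. That length is 866 bases for Fth1 and 1340 for Ftl1, against 929 and 968 in the transcripts read for the hairpins. The libraries expressed 7 of 7 epithelial markers (such as Epcam and Vil1, summed FPKM 5591 to 9843), while fibroblast, endothelial and red cell markers summed to at most 0.885 and leukocyte markers to at most 5.17. Hoxb13 and Hoxd13, homeobox genes of the distal colon that were chosen here after their values were seen, were listed at 0 in all 6 control libraries and reached FPKM of 104 to 134 and 31.2 to 59.7 in those labelled KO, so the labelled genotype and such a difference between the cultures cannot be told apart.

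Replicate 3 of control colonoids with hemin stood farthest from the other libraries of its group, with a median absolute log2 difference of 0.272 and 552 genes apart by over 1, against 0.0555 to 0.191 and 85 to 249 genes for the other 11 libraries. Calls that change without it are given beside the gene. Cd68, a macrophage marker and the only 1 of 6 leukocyte markers above the filter, had a mean FPKM of 2.72 and 3.82 in control with vehicle and hemin and of 1.07 and 3.54 in KO. It was lower in KO with vehicle (log2 difference −0.82, adjusted p = 0.0220) and rose with hemin in KO (1.14, adjusted p = 0.00184). Hemin also moved markers within the epithelium. Beside the counts that follow, 49.9% of all 12740 genes passed with hemin in control and 60.4% in KO, 34.2% between genotypes with vehicle, 34.4% with hemin and 23.8% in the interaction. Of the 7 epithelial markers 3 rose in control (Epcam 0.78, Vil1 0.83 and Cdh1 0.53 on the log2 scale), and in KO 6 rose (Epcam 0.98, Vil1 1.28) and Krt18 fell, with the interaction passing for 4. With vehicle 4 of the 7 were lower in KO, among them Cdx2, an intestinal transcription factor, at a log2 difference of −2.03. With hemin 1 was higher in KO (Cdh1, 0.20) and 2 were lower (Krt18, −0.69, and Cdx2, −1.27). Stem and proliferation markers (such as Lgr5 and Mki67) summed to FPKM of 90.4 to 133 with vehicle and 30.7 to 54.1 with hemin, and 5 of 5 fell in both genotypes. Goblet markers summed to 412 to 486 in KO with hemin and 925 to 1626 in the other groups, with 3 of 5 lower with hemin in control and 4 of 5 in KO. Colonocyte markers were split, with 3 of 6 higher and 3 lower in control and 2 higher and 3 lower in KO. Their sum of 1932 to 2472 with vehicle and 3369 to 6706 with hemin was mostly Car1 (mean FPKM 2129 and 4918 in control), while Car4 and Ceacam20 fell in both genotypes. Between genotypes 3 colonocyte markers were higher and 2 lower in KO with vehicle (log2 difference 4.36 for Car4 and 3.25 for Aqp8), and 2 were higher and 2 lower with hemin (5.73 for Aqp8). Of the goblet markers 1 was higher and 3 lower in KO with vehicle and 4 were lower with hemin, and 4 interactions were negative (−2.51 for Muc2). Of the stem and proliferation markers 3 were higher in KO with vehicle, and 3 were higher and 1 lower with hemin. The interaction passed for 2 of them, both downward, and for 2 colonocyte markers upward and 2 downward. The part of all these markers in the results below was not tested, and in bulk RNA fewer cells of a type and less RNA per cell cannot be told apart.

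Both ferritin chains were among the most abundant mRNAs of these colonoids and rose with hemin in both genotypes, further in KO. Heavy chain Fth1 (ENSMUSG00000024661, chromosome 19, 9982703 to 9985092, plus strand) had FPKM of 822, 783 and 776 in control with vehicle and 2512, 2483 and 2316 with hemin. In KO it had 539, 552 and 549 with vehicle and 5352, 5318 and 5284 with hemin. All 12 libraries fell into 4 separate bands, lowest in KO with vehicle, then control with vehicle, control with hemin and KO with hemin, with no overlap between neighbours. The means were 794 ± 24.9, 2437 ± 106, 547 ± 6.76 and 5318 ± 34.3 (SD, n = 3) for control with vehicle and with hemin and KO with vehicle and with hemin. Hemin thus went with 3.07 times the mean FPKM of vehicle in control and 9.73 times in KO. On the scale of log2(FPKM + 1), Fth1 rose by 1.62 ± 0.06 (SE, limma, adjusted p = 1.06e-08) in control and by 3.28 ± 0.06 (adjusted p = 4.50e-11) in KO.

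Ftl1, the light chain (ENSMUSG00000050708, chromosome 7, 45457944 to 45459884, minus strand), had FPKM of 423, 424 and 442 in control with vehicle and 2467, 2517 and 1959.8 with hemin. KO libraries had 259, 324 and 290.1 with vehicle and 3503, 3157 and 3394 with hemin. The order of the groups was that of the heavy chain and neighbouring groups again did not overlap, although replicate 3 of control with hemin lay well below the other libraries of its group. Group means were 429.8 ± 10.3, 2315 ± 308, 291 ± 32.6 and 3351 ± 177 (SD, n = 3), in the same order as for Fth1. Ftl1 mean FPKM was 5.39 times as high with hemin in control and 11.5 times in KO. On the log2 scale the rise was 2.42 ± 0.11 (adjusted p = 4.42e-08) in control and 3.53 ± 0.11 (adjusted p = 1.16e-09) in KO.

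Ranked by mean FPKM among 12740 genes, Fth1 went from rank 30 to rank 7 with hemin in control and from rank 43 to rank 3 in KO. Ftl1 went from rank 71 to 10 in control and from 122 to 5 in KO. Ranked by the size of the rise with hemin, Ftl1 was 15th in control and 17th in KO, and Fth1 was 65th and 22nd.

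**Figure D1:**
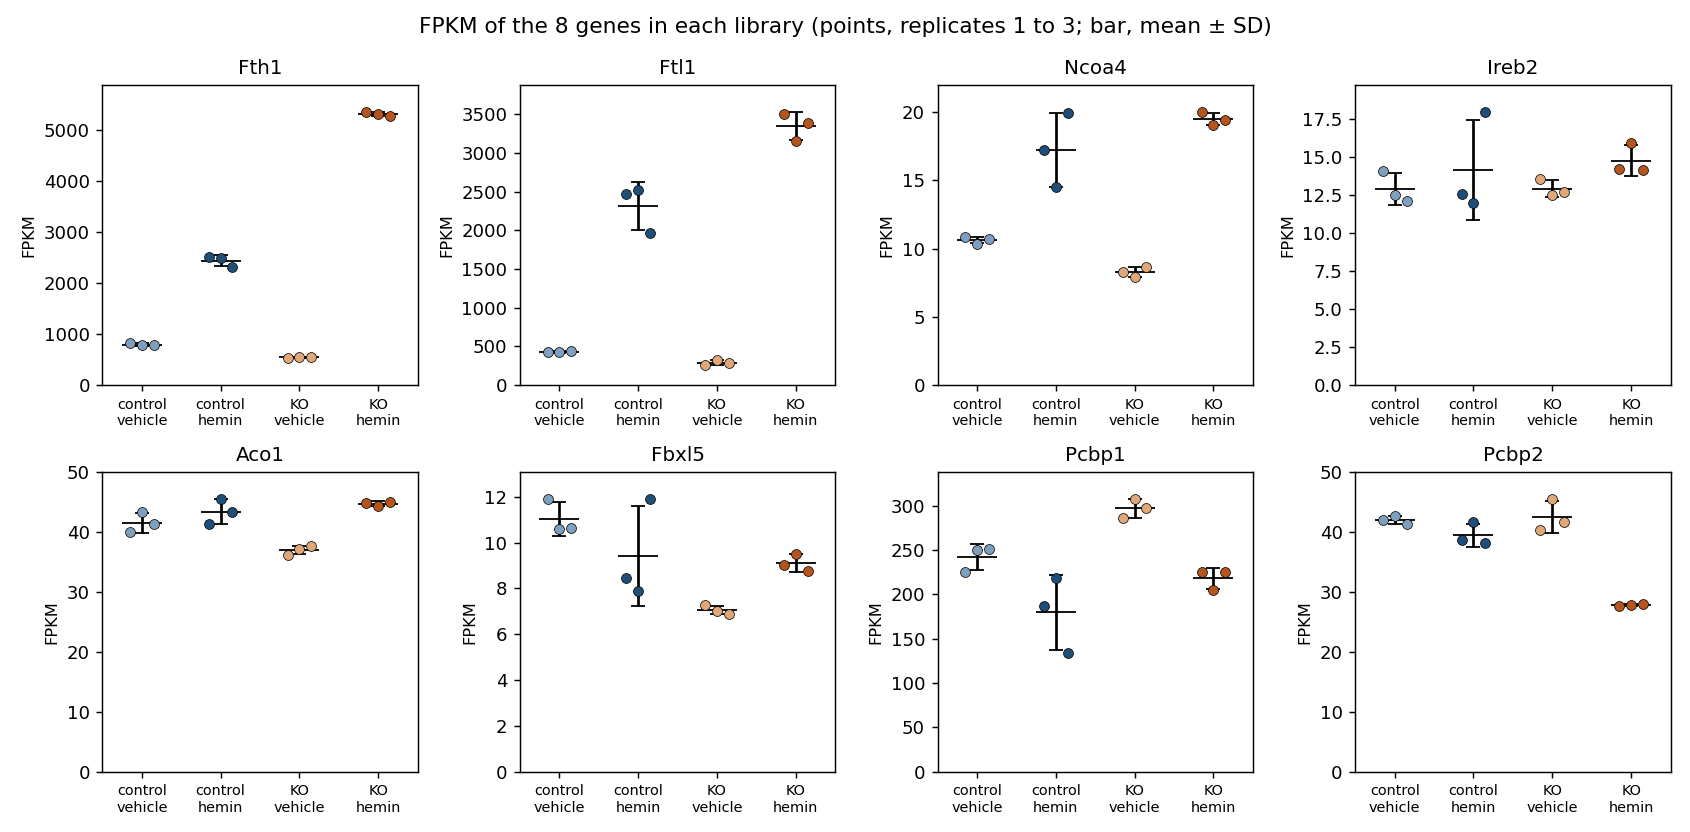
FPKM (vertical axes, each from 0) of the 8 genes in the 12 libraries, 1 panel a gene. Points are replicates 1 to 3 of each group from left to right and bars are the mean ± SD. Fth1 and Ftl1 stand in 4 separate bands, highest in KO with hemin (means 5318 and 3351), Ncoa4 is higher with hemin in both genotypes, Pcbp2 is low in KO with hemin alone (27.9), and Ireb2 and Aco1 move little.

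The ferritin response to hemin differed between the genotypes. The interaction, the rise in KO minus the rise in control on the log2 scale, was 1.66 ± 0.09 (SE, limma, adjusted p = 5.51e-07) for Fth1 and 1.11 ± 0.15 (adjusted p = 4.25e-04) for Ftl1. The genotypes differed both without and with hemin, in opposite directions. With vehicle Fth1 was lower in KO (log2 difference −0.54 ± 0.06, adjusted p = 4.09e-05) and so was Ftl1 (−0.57 ± 0.11, adjusted p = 0.00191). With hemin Fth1 was higher in KO by 1.13 ± 0.06 (adjusted p = 1.18e-07) and Ftl1 by 0.54 ± 0.11 (adjusted p = 0.00265). Rescaled to TPM, under which the median gene of KO against control with vehicle stood at 0.16, the lower vehicle levels no longer passed (−0.39, adjusted p = 0.124, for Fth1 and −0.42, adjusted p = 0.146, for Ftl1). Nor did the higher hemin level of Ftl1, whose difference stayed at 0.54 with an SE of 0.19 (adjusted p = 0.0638). With Gm23935, a non-coding RNA that took up to 29.0% of a library's FPKM, left out of the TPM, all 3 passed (Fth1 −0.47, adjusted p = 1.09e-04, Ftl1 −0.50, adjusted p = 0.00399, and Ftl1 with hemin 0.49, adjusted p = 0.00507).

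The heavy and light chain did not rise in step. Within a library the FPKM ratio of Fth1 to Ftl1 was 1.94, 1.85 and 1.76 in control with vehicle and 1.02, 0.986 and 1.18 with hemin. KO libraries had 2.08, 1.70 and 1.89 with vehicle and 1.53, 1.68 and 1.56 with hemin. The ratio thus fell with hemin in both genotypes without overlap, to near equal FPKM in control and less far in KO. The ratio does not depend on how libraries were scaled. Its level, unlike its changes between groups, does depend on the gene lengths used for FPKM. The log2 ratio fell by 0.80 with hemin in control and by 0.25 in KO, and with hemin it was 0.59 higher in KO than in control, each with an exact two-sided permutation p of 0.1, the smallest that 3 against 3 libraries allow. With vehicle the genotypes overlapped (difference 0.03, exact permutation p = 0.9). These were among 20 such comparisons of 5 ratios, and none can reach 0.05 before or after adjustment.

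Copies of the ferritin genes could have taken fragments from them or given fragments to them, so the values of both chains carry that uncertainty. The table lists 15 such copies, 3 of the light and 12 of the heavy chain, of which 9 were at 0 in every library. The filter on low values was passed by Ftl1-ps1, annotated as protein coding on chromosome 13 from 74399694 to 74407346, and by Ftl2-ps, and by no other copy. Ftl1-ps1 had mean FPKM of 10.1, 51.5, 7.93 and 82.4 in control with vehicle and hemin and KO with vehicle and hemin, which is 1.81% to 3.25% of that of Ftl1 in single libraries. Copies of the heavy chain summed to at most 0.0727% of Fth1.

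Promoter sequence is shown for both chains because they changed in the same direction in each comparison. The 250 bases before the RefSeq transcript start (GRCm38.p6) nearest to the table's gene start are at chr19:9982396-9982645 on the plus strand for Fth1 and chr7:45459887-45460136 on the minus strand for Ftl1, 5′ to 3′, with GC boxes (GGGCGG or CCGCCC) and CCAAT boxes (here all as ATTGG, on the opposite strand) in capitals.
Fth1 promoter: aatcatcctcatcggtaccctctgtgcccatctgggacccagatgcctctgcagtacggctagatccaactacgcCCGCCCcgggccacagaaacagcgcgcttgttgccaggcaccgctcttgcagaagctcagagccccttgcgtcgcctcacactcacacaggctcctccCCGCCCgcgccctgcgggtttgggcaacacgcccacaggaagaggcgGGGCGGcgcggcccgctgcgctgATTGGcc
Ftl1 promoter: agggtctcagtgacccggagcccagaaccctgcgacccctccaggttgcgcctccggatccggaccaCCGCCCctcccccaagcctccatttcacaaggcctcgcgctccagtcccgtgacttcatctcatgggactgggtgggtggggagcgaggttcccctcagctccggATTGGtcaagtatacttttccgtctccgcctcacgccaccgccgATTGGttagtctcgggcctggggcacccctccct
Both held a CCAAT box and a GC box, as did 37.4% and 35.7% of 32851 RefSeq windows that reach 50 bases past the start, for each motif on its own and on both strands. A TATAA lay 26 bases past the start given for Fth1 and 17 past that for Ftl1, and 24.9% of windows held one on either strand. The core letters of the antioxidant response element (TGACNNNGC), present in 12.4% of windows, were in neither window and in 1 of the 3 windows of Ncoa4. Sequence farther than 250 bases before or 50 past the start was not searched, so elements there would be missed. Windows were matched for 7 of the 8 genes.

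Ncoa4, the ferritinophagy receptor (ENSMUSG00000056234, chromosome 14, 32159865 to 32179855, plus strand), also rose with hemin, by less than ferritin. Its FPKM was 10.8, 10.4 and 10.7 in control with vehicle and 17.2, 14.5 and 19.95 with hemin. In KO it was 8.29, 7.92 and 8.61 with vehicle and 19.98, 19.1 and 19.4 with hemin. Every hemin library was above every vehicle library, and the genotypes overlapped only with hemin, where the control libraries were spread widely. Ncoa4 rose by 0.64 ± 0.09 (SE, limma, adjusted p = 1.77e-04) in control and by 1.14 ± 0.09 (adjusted p = 1.38e-06) in KO on the log2 scale. The interaction was 0.50 ± 0.13 (adjusted p = 0.0165). With vehicle Ncoa4 was lower in KO (−0.33 ± 0.09, adjusted p = 0.0178), and with hemin the difference of 0.18 (95% interval −0.02 to 0.38) did not pass (adjusted p = 0.162). Without replicate 3 of control with hemin that difference was 0.28 and passed (adjusted p = 0.00700). The lower vehicle level in KO passed in 17 of 21 alternatives, and did not without replicate 1 (adjusted p = 0.0536) or 3 (0.0506) of control with vehicle or replicate 2 of KO with vehicle (0.0672). Rescaled to TPM neither it (−0.21, adjusted p = 0.484), the rise in control (0.48, adjusted p = 0.0566) nor the interaction (0.39, adjusted p = 0.467) passed, and with Gm23935 left out of the TPM all 3 did (adjusted p = 0.0375, 5.42e-04 and 0.0451).

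Set against its cargo, Ncoa4 mRNA became scarcer with hemin. Its FPKM was 1.32%, 1.32% and 1.38% of that of Fth1 in control with vehicle and 0.686%, 0.584% and 0.862% with hemin. In KO it was 1.54%, 1.44% and 1.57% with vehicle and 0.373%, 0.358% and 0.367% with hemin. The 4 groups did not overlap, and the log2 ratio fell by 0.93 with hemin in control and fell by 2.05 in KO (exact permutation p = 0.1 for each).

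Among 16 other genes of the ferritinophagy route, from cargo adaptors to autophagosome and lysosome proteins, 12 rose and 1 fell with hemin in control, and 12 rose and 1 fell in KO. Of all 12740 genes, 23.2% rose and 26.7% fell in control (49.9% in all) and 29.9% rose and 30.4% fell in KO (60.4% in all). The median log2 change of the 16 was 0.52 and 0.60, beside −0.01 and −0.002 over all genes. Gabarapl1, an autophagosome membrane protein, passed the fold threshold of 1 on the log2 scale in control (1.08), and Gabarap (1.13), Gabarapl2 (1.05), Map1lc3a (1.46), the lysosomal channel Mcoln1 (1.09) and the adaptor Sqstm1 (1.56) did so in KO. Map1lc3a was uneven in control with hemin, with FPKM of 49.7, 51.2 and 18.4. The endosomal ferric reductase Steap3 fell in both, by 0.92 in control and by 1.34 in KO, from mean FPKM of only 1.90 and 4.01. Herc2, the ligase that marks NCOA4 for degradation when iron is high, rose by 0.34 (adjusted p = 0.00278) and 0.53 (adjusted p = 8.35e-05).

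Between genotypes with vehicle 2 of 16 were higher and 2 lower in KO, beside 17.4% and 16.8% of all genes (34.2% in all). With hemin 3 were higher and 2 lower, beside 19.7% and 14.7% (34.4% in all). Sqstm1, which binds ubiquitin-marked cargo and is also an NRF2 target, had FPKM of 149, 139 and 151 in control and 57.2, 59.5 and 55.7 in KO with vehicle (log2 difference −1.33, adjusted p = 1.42e-06). With hemin its genotypes overlapped, at 181, 192 and 152 in control and 190.4, 153 and 173 in KO. The interaction, which passed for 13.3% of all genes upward and 10.5% downward (23.8% in all), did so for Sqstm1 (1.31), Gabarap (0.54) and Mcoln1 (0.54), and for Map1lc3b downward (−0.50).

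**Figure D2:**
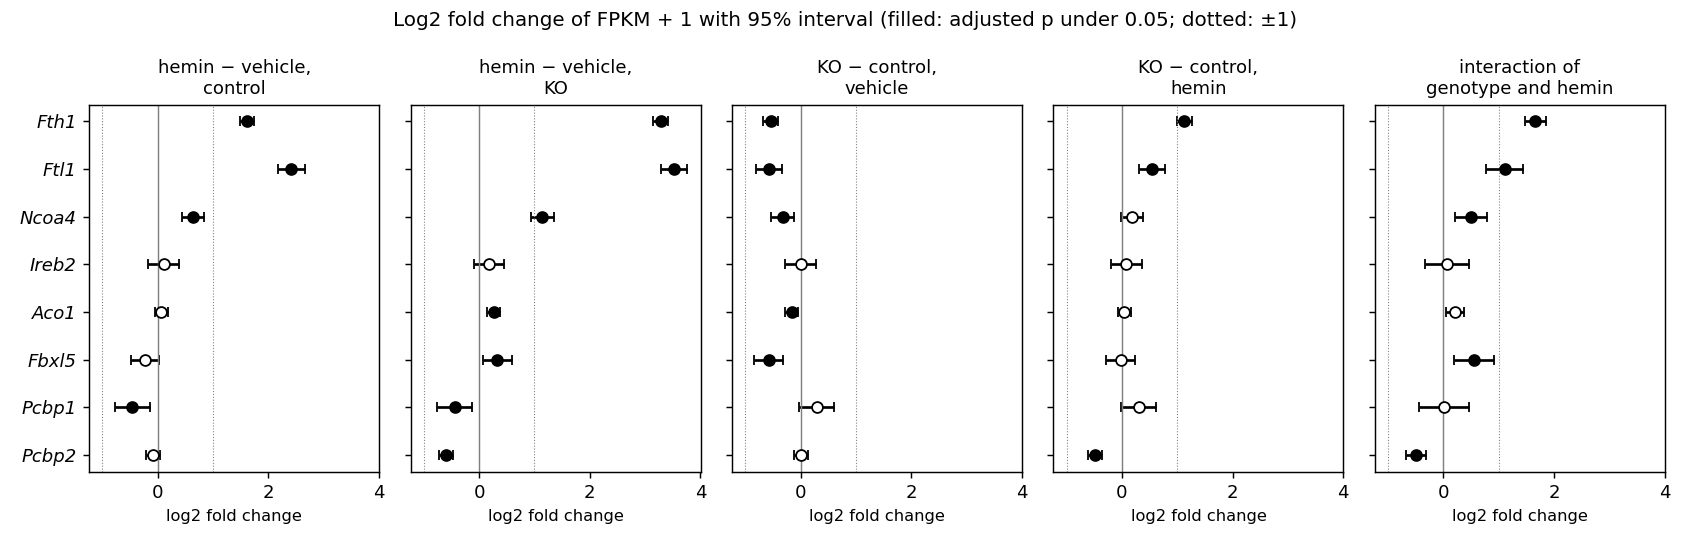
Log2 fold change of FPKM + 1 (horizontal axes, points) with its 95% interval (bars) for the 8 genes in the 4 comparisons and the interaction, 1 panel each. Filled points passed limma at an adjusted p under 0.05, and dotted lines stand at −1 and 1. Fth1 and Ftl1 lie past 1 with hemin in both genotypes, and the points of Ireb2 are open in all 5 panels.

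The mRNAs of the iron regulatory proteins themselves moved little. Ireb2 (IRP2; ENSMUSG00000032293, chromosome 9, 54863789 to 54912530, plus strand) had FPKM of 14.1, 12.5 and 12.1 in control with vehicle and 12.6, 12.02 and 18.0 with hemin. KO libraries had 13.6, 12.5 and 12.7 with vehicle and 14.3, 15.95 and 14.2 with hemin. Groups overlapped in every comparison but hemin against vehicle in KO, and replicate 3 of control with hemin was the highest library of all. No comparison passed: the log2 change with hemin was 0.11 (95% interval −0.17 to 0.39, adjusted p = 0.503) in control and 0.18 (−0.10 to 0.46, adjusted p = 0.247) in KO, and the difference between genotypes was 0.01 (−0.27 to 0.29) with vehicle and 0.08 (−0.20 to 0.35) with hemin. Without replicate 3 of control with hemin, Ireb2 passed with hemin in KO (adjusted p = 0.0360) and between genotypes with hemin (0.25 higher in KO, adjusted p = 0.0226).

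Aco1, which encodes IRP1 and doubles as the cytosolic aconitase (ENSMUSG00000028405, chromosome 4, 40143081 to 40198338, plus strand), had FPKM of 40.1, 43.3 and 41.3 in control with vehicle and 41.4, 45.6 and 43.4 with hemin. In KO it had 36.2, 37.1 and 37.7 with vehicle and 44.9, 44.3 and 45.1 with hemin. The KO vehicle libraries were the lowest and overlapped no other group, while the other 3 groups lay close together. Aco1 rose with hemin in KO by 0.27 ± 0.05 (SE, limma, adjusted p = 0.00118), a change that turned to −0.066 (adjusted p = 0.801) once rescaled to TPM and did not pass at 0.047 (adjusted p = 0.523) with Gm23935 left out of the TPM. In control the change of 0.06 (95% interval −0.06 to 0.18) did not pass. With vehicle Aco1 was lower in KO by a log2 difference of −0.16 ± 0.05 (adjusted p = 0.0353), a call that held in only 11 of 21 alternatives. The difference was −0.018 (adjusted p = 0.964) under TPM and −0.10 (adjusted p = 0.224) with Gm23935 left out of it, and −0.13 to −0.18 where a left-out library or the replicate block ended the call. The interaction of 0.21 did not pass (adjusted p = 0.0711), and it did without replicate 2 (adjusted p = 0.0368) or replicate 3 (adjusted p = 0.0408) of control with hemin. The ratio of Aco1 to Ireb2 was between 2.41 and 3.79 in all libraries, and groups overlapped in each of its 4 comparisons (exact permutation p of 0.3 to 0.8).

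Fbxl5, the iron-sensing subunit of the ligase that removes iron regulatory proteins (ENSMUSG00000039753, chromosome 5, 43744615 to 43821638, minus strand), differed by genotype with vehicle. Its FPKM was 11.9, 10.6 and 10.6 in control and 7.27, 7.01 and 6.90 in KO with vehicle. With hemin it was 8.46, 7.88 and 11.9 in control and 9.04, 9.53 and 8.76 in KO. Vehicle libraries of the genotypes were well apart, whereas with hemin the KO libraries lay inside the control range. With vehicle Fbxl5 was lower in KO by a log2 difference of −0.58 ± 0.12 (SE, limma, adjusted p = 0.00284), which did not pass under TPM alone of 21 alternatives (adjusted p = 0.113). With hemin in KO it rose by 0.33 ± 0.12 (adjusted p = 0.0330), which passed in 11 of 21 alternatives and was 0.025 (adjusted p = 0.930) under TPM and 0.13 (adjusted p = 0.378) with Gm23935 left out of it. In control it did not pass (−0.23, 95% interval −0.49 to 0.03, adjusted p = 0.132), but without replicate 3 of that group it fell by 0.39 (adjusted p = 4.32e-04), and under TPM without Gm23935 by 0.35 (adjusted p = 0.0382). The interaction of 0.55 ± 0.17 (adjusted p = 0.0339) passed in 6 of 21 alternatives.

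Fbxl5 and Ireb2 kept a tight ratio within each group, even in the control hemin library in which both were high. The FPKM of Fbxl5 was 0.844, 0.848 and 0.878 of that of Ireb2 in control with vehicle and 0.673, 0.656 and 0.662 with hemin. KO libraries had 0.534, 0.560 and 0.543 with vehicle and 0.634, 0.597 and 0.619 with hemin. No pair of compared groups overlapped, with the ratio lower with hemin in control and higher with hemin in KO (exact permutation p = 0.1 for each). The means ran from 0.857 ± 0.0186 (SD, n = 3) in control with vehicle to 0.546 ± 0.0129 in KO with vehicle.

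Of 12 genes that build the FBXL5 ligase or insert cytosolic iron-sulfur clusters, 4 rose and 1 fell with hemin in control and 3 rose and 2 fell in KO, beside 49.9% and 60.4% of all genes in either direction. Between genotypes 1 was lower in KO with vehicle, and 2 were higher and 1 lower with hemin, beside 34.2% and 34.4%. For none did the interaction pass, beside 23.8% of all genes. None passed the fold threshold in any comparison, beside 5.13% to 12.9% of all genes.

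**Figure D3:**
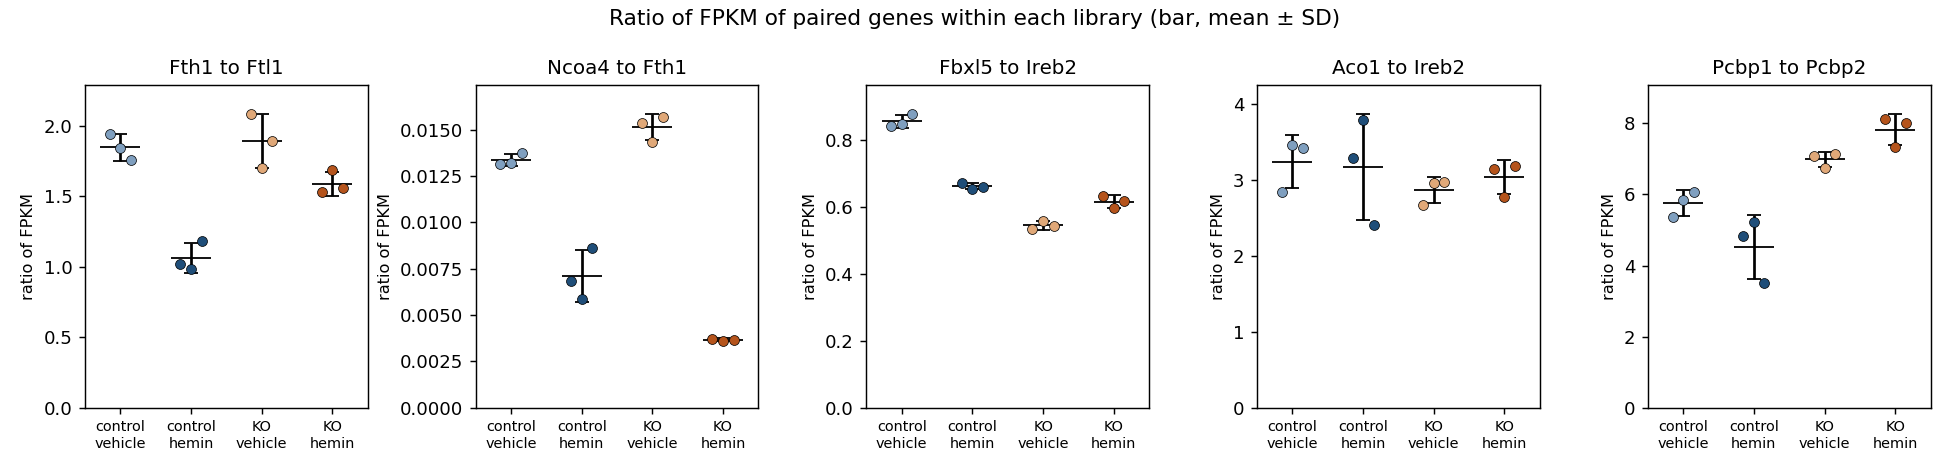
FPKM ratios of paired genes within each library (vertical axes, each from 0), 1 panel a pair, with points for replicates 1 to 3 and bars for the mean ± SD. Fth1 to Ftl1 is lowest in control with hemin (mean 1.06), Ncoa4 to Fth1 is lowest in KO with hemin (0.366%, drawn as a fraction), Fbxl5 to Ireb2 is separate in each group, and Aco1 to Ireb2 overlaps between groups.

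The iron chaperones did not rise with ferritin. Pcbp1 (ENSMUSG00000051695, chromosome 6, 86524492 to 86526321, minus strand) had FPKM of 226, 249.9 and 251 in control with vehicle and 187, 218 and 133 with hemin. In KO it had 286, 307 and 297 with vehicle and 225, 204 and 225 with hemin. Every hemin library lay below every vehicle library of its genotype, and replicate 3 of control with hemin was the lowest of all 12. Pcbp1 fell by 0.46 on the log2 scale in control (SE 0.14, limma, adjusted p = 0.0206) and by 0.44 in KO (SE 0.14, adjusted p = 0.0194). The genotypes did not overlap with vehicle, yet the difference of 0.29 (95% interval −0.02 to 0.61) did not pass (adjusted p = 0.145), and it did pass without replicate 3 of control with hemin (adjusted p = 0.00640). With hemin the genotype difference of 0.31 did not pass (adjusted p = 0.125), and it did without replicate 2 of control with hemin (0.46, adjusted p = 0.0164). The fall in control did not pass without replicate 2 or 3 of control with vehicle (adjusted p = 0.0616 and 0.0626) or with no filter on low values (0.0535), nor that in KO without replicate 2 of KO with vehicle or with hemin (adjusted p = 0.0582 and 0.0636). The interaction was 0.01 (−0.43 to 0.46).

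Pcbp2 (ENSMUSG00000056851, chromosome 15, 102470539 to 102500061, plus strand) fell with hemin in KO, and the interaction passed. Its FPKM was 42.1, 42.7 and 41.4 in control with vehicle and 38.7, 41.7 and 38.1 with hemin. In KO it was 40.4, 45.5 and 41.7 with vehicle and 27.7, 27.9 and 28.1 with hemin. The KO hemin libraries were below the other 9, which lay between 38.1 and 45.5. The log2 change with hemin was −0.59 ± 0.06 (SE, limma, adjusted p = 6.35e-06) in KO and −0.09 (95% interval −0.22 to 0.04, adjusted p = 0.220) in control, with an interaction of −0.50 ± 0.08 (adjusted p = 0.00123). With hemin Pcbp2 was lower in KO than in control (−0.49 ± 0.06, adjusted p = 6.62e-05). Rescaled to TPM that difference (−0.49, adjusted p = 0.0759) and the interaction (−0.66, adjusted p = 0.155) did not pass. With Gm23935 left out of the TPM both did (adjusted p = 4.09e-05 and 5.12e-04), and Pcbp2 also fell with hemin in control (−0.20, adjusted p = 0.0191). The FPKM ratio of Pcbp1 to Pcbp2 was 4.52 ± 0.909 (SD, n = 3) in control and 7.82 ± 0.435 in KO with hemin.

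Of the related genes tested (Pcbp4, Hnrnpk, Glrx3 and Bola2), Hnrnpk, an RNA-binding relative, fell with hemin by 0.41 in control and by 0.53 in KO, and Glrx3, a glutaredoxin that works with BOLA2 on iron-sulfur clusters, fell by 0.52 and by 0.39. Glrx3 was higher in KO by 0.20 with vehicle and by 0.33 with hemin, Bola2 was higher by 0.23 with hemin and Hnrnpk had a log2 difference of −0.17 there. That is 2 of 4 that passed with hemin in each genotype, beside 49.9% and 60.4% of all genes, and 1 and 3 of 4 between genotypes with vehicle and hemin, beside 34.2% and 34.4%. None passed the fold threshold, which 6.01% to 12.9% of all genes passed in these comparisons.

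Counted together, 4 of the 8 genes passed with hemin in control, against 49.9% of all 12740 genes, and 7 passed in KO, against 60.4%. The control share is that of all genes. Past the fold threshold as well were 2 in control (Fth1 and Ftl1), against 8.11% of all genes, and 3 in KO (with Ncoa4), against 12.9%. The rise of Ncoa4 in KO ranged from 0.87 to 1.24 over 21 alternatives, so it was not past that threshold in all of them. Between genotypes 5 were lower in KO with vehicle and none higher, against 16.8% and 17.4% of all genes, and none passed the fold threshold, against 6.8%. Between genotypes with hemin 3 passed, against 34.4% of all genes, and only Fth1 passed the fold threshold, against 6.01%. The interaction passed for 5, against 23.8%, and past the fold threshold for Fth1 and Ftl1, against 5.13%. Rescaled to TPM, none passed between genotypes with vehicle, 1 with hemin and 2 in the interaction, beside 2269, 2109 and 909 of all 12740 genes, against 4362, 4383 and 3031 as deposited. Without replicate 3 of control with vehicle or without replicate 2 of KO with vehicle, 3 passed between genotypes with vehicle, beside 3670 and 3499 of all genes. Without replicate 3 of control with hemin, 5 passed between genotypes with hemin, beside 5483 of all genes, and the interaction of Fth1 alone was past the fold threshold. The comparisons share libraries, since each group enters more than 1 of them.

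Other mRNAs that carry an iron-responsive element were set beside ferritin. Of 6 such genes 5 were tested, and Alas2, the erythroid enzyme of heme synthesis, was below the filter. With hemin 2 rose and 2 fell in each genotype, beside 23.2% and 26.7% of all genes in control and 29.9% and 30.4% in KO. Between genotypes 1 was higher and 1 lower in KO with vehicle, beside 17.4% and 16.8%, and 3 were higher and 1 lower with hemin, beside 19.7% and 14.7%. Tfrc, which brings transferrin-bound iron into the cell, had FPKM of 70.2, 59.9 and 60.0 in control with vehicle and 4.78, 5.41 and 6.80 with hemin. In KO it had 72.7, 67.2 and 68.5 with vehicle and 22.4, 24.2 and 22.3 with hemin. Tfrc was thus lower with hemin in both genotypes and stayed higher in KO, while the genotypes overlapped with vehicle. On the log2 scale it fell by 3.28 in control (adjusted p = 3.38e-09) and by 1.56 in KO (adjusted p = 3.58e-07), with an interaction of 1.72 ± 0.15 (adjusted p = 1.82e-05). Where ferritin rose further in KO than in control, Tfrc fell less far.

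Slc40a1 rose with hemin in both genotypes and further in KO, with FPKM of 23.5, 23.9 and 23.5 in control with vehicle, 36.6, 30.9 and 43.3 with hemin, 25.5, 24.0 and 24.0 in KO with vehicle and 69.5, 58.8 and 63.0 with hemin. It rose by 0.61 in control and 1.34 in KO, with an interaction of 0.73 ± 0.15 (adjusted p = 0.00456). With vehicle, where ferritin was lower in KO, the genotype difference of Slc40a1 was 0.05 and did not pass (adjusted p = 0.765). Slc11a2, the transporter DMT1 of ferrous iron, differed most of them by genotype with vehicle. Its FPKM was 6.90, 7.44 and 7.66 in control and 104, 113 and 109 in KO with vehicle. With hemin it was 6.06, 6.22 and 5.82 in control and 17.4, 15.9 and 16.1 in KO, a fall by 0.24 and by 2.65 on the log2 scale. The search found no element in the Slc11a2 transcript examined. Gene-level FPKM does not tell transcripts with an element from those without it, so these values are not particular to either. Epas1, which encodes the hypoxia factor HIF-2α, was lower in KO with vehicle (log2 difference −1.03) and with hemin (−0.79). Cdc14a, a cell cycle phosphatase, rose with hemin by 0.30 and 0.36.

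**Figure D4:**
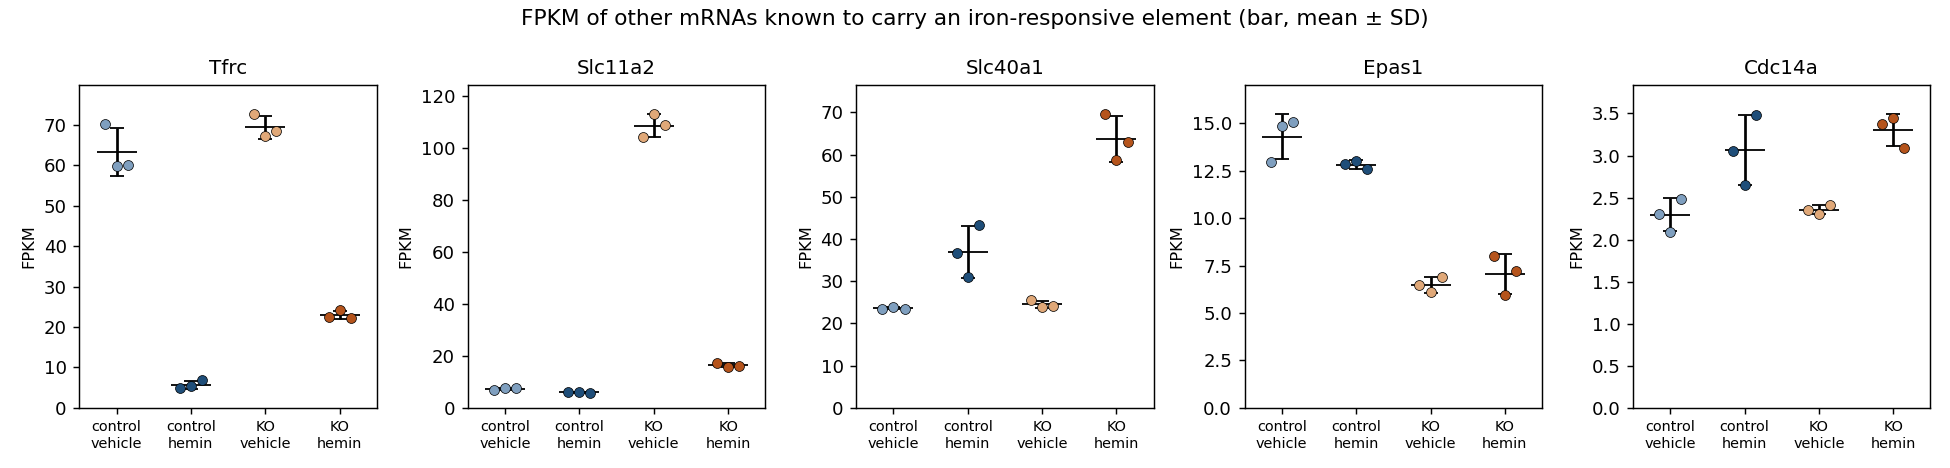
FPKM (vertical axes, each from 0) of 5 other mRNAs known to carry an iron-responsive element, with points for replicates 1 to 3 of each group and bars for the mean ± SD. Tfrc is lowest in control with hemin (5.66) and at 22.96 in KO with hemin, Slc11a2 is highest in KO with vehicle (109), and Slc40a1 is highest in KO with hemin (63.8).

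The genes whose pattern over the 12 libraries was most like each of the 8 were ranked by the root mean square difference of log2(FPKM + 1), each gene centred on its own mean. For Fth1 they were the carbonyl reductase Cbr3 (0.17), the sulfiredoxin Srxn1 (0.19) and Gclm (0.20), a subunit of the enzyme that starts glutathione synthesis. Mean FPKM of Srxn1 ran from 38.9 to 141 with hemin in control and from 22.5 to 293 in KO. For Ftl1 they were the glucuronosyltransferase Ugt1a7c (0.16), Ftl1-ps1 (0.23) and again Srxn1 (0.25).

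For Ncoa4 the nearest were Adam9 (0.05), Pgrmc1 (0.06), a heme-binding membrane protein, and Ypel5 (0.07). Adam9 had mean FPKM of 28.2 and 43.9 in control with vehicle and hemin and 21.4 and 49.8 in KO. Nearest to Ireb2 were Rap1a, Map4k5 and Hspa13, to Aco1 Gpatch8, Ap2b1 and Glud1, and to Fbxl5 Zdhhc13, the endosomal protein Eea1 and the actin nucleator subunit Actr3. Nearest to Pcbp1 were Fzr1, Mllt1 and Ssbp3, and to Pcbp2 Fbxo21, Map4k4 and the ribosomal protein Rplp0. Genes that change little lie close to many others on this measure.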

How the data were processed

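Poly-A mRNA of 12 colonoid libraries was prepared, sequenced and processed by Novogene. The submitters' processing notes list fastp, HISAT2 2.0.5, featureCounts 1.5.0-p3 and mm10, without their roles, and strandedness is not given in the sources used here. The authors deposited FPKM, a fragment count divided by gene length and library depth, for 54532 genes, with gene coordinates and lengths. Of these values 100% were whole multiples of 1 fragment (tolerance 0.01), from which the fragments per gene were recovered.

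limma 3.58.1 (R 4.3.3) was fitted to log2(FPKM + 1) of the 12740 genes that reached an FPKM of 1 in 3 or more libraries, with 1 mean for each of 4 groups and an intensity trend. Adjusted p-values are by Benjamini-Hochberg over these genes, and those given for an alternative come from its own fit, over 29296 genes with no filter on low values. A gene passed at an adjusted p under 0.05, and the fold threshold was an absolute log2 fold change above 1. Ratios were tested by exact permutation of libraries (scipy 1.17.1). The code was tested on simulated data. Libraries of 1 group differed by more than counting error (chi-square per degree of freedom 1.93 to 43.1).

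Genes named are the 8, Hmox1, those of the fixed lists past a threshold, ferritin copies above the filter and the 3 nearest patterns of each. Hoxb13, Hoxd13 and list genes under the fold threshold were named after their values were seen. The 8 genes and the lists were chosen with earlier results of these data known. Replicate numbers come only from the titles. Deviations from the group mean correlated at a mean of −0.042 between libraries of the same number (−0.327 to 0.179) and 0.023 between others, so the numbers were not taken as pairs. One gene of a list is not reported here and was left out of its counts.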

Additional observations from a re-analysis of the deposited data

Results flagged for a closer look

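For 5 of the 8 genes the response to hemin differed between colonoids labelled KO and control, by the interaction in limma at an adjusted p under 0.05, which 23.8% of all 12740 genes also passed. The interaction on the log2 scale was 1.66 for Fth1 and 1.11 for Ftl1, the ferritin chains, 0.50 for Ncoa4 and 0.55 for Fbxl5, where the response was more positive in KO, and −0.50 for Pcbp2, where it was more negative. For Fbxl5 the adjusted p was 0.0339, between 1.47e-04 and 0.423 over 21 alternatives. Over the same alternatives the interaction of Fth1 was 1.52 to 1.69 and that of Ftl1 0.96 to 1.19, and both passed in all 21. Hmox1 itself was higher in KO than in control with hemin, and Hoxb13 and Hoxd13 were listed at 0 in every control library. The part of either in these differences was not tested.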

How the results depend on the processing

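Each of the 8 genes in each of 5 comparisons was recomputed under 21 alternatives, of which 750 values kept direction and side of the threshold, 53 lost and 10 gained a call and 27 changed sign. Of these only Aco1 with hemin in KO (−0.066 under TPM) had passed as deposited, and none passed with the changed sign. Under TPM the others were Ireb2 with hemin in control (−0.073) and KO (−0.15) and its interaction (−0.073), Aco1 with hemin in control (−0.13) and the Pcbp1 interaction (−0.13). Under TPM without Gm23935 they were Ireb2 with hemin in KO (−0.035) and its interaction (−0.043), Aco1 with hemin in control (−0.045) and between genotypes with hemin (−0.0093), and the Pcbp1 interaction (−0.10). With single libraries left out Ireb2 ranged from −0.062 to 0.21 with hemin in control, from −0.035 to 0.068 and from −0.025 to 0.25 between genotypes with vehicle and hemin, and from −0.032 to 0.24 in the interaction. Between genotypes Fbxl5 with hemin ranged from −0.13 to 0.14 and Pcbp2 with vehicle from −0.034 to 0.050, and the Pcbp1 interaction from −0.19 to 0.17. The count that passed between genotypes with vehicle was 5, with hemin 3 and in the interaction 5, under TPM 0, 1 and 2, and under TPM without Gm23935 4, 3 and 4. Of all 12740 genes 4362, 4383 and 3031 passed in these, under TPM 2269, 2109 and 909, and under TPM without Gm23935 4463, 4294 and 3001. With each library left out the counts of the 8 were 3 to 6, 3 to 5 and 4 to 6 (of all genes 3463 to 5821, 3488 to 5483 and 2363 to 4726), the first at 3 without replicate 3 of control or replicate 2 of KO with vehicle, the second at 5 without replicate 3 of control with hemin. The interaction past the fold threshold (2 genes) was kept by 1 under TPM, under TPM without Gm23935 and without replicate 3 of control with hemin, and over single libraries left out by 1 to 2. Under TPM the median gene stood at −0.19 and −0.31 with hemin in control and KO. Gm23935, a non-coding RNA, took 1.18% to 29.0% of the FPKM of a library. On FPKM + 1 the log2 ratio changed to −2.14 from −2.05 for Ncoa4 to Fth1 with hemin in KO, to −0.34 from −0.37 for Fbxl5 to Ireb2 with hemin in control, and to −0.58 from −0.65 for it between genotypes with vehicle. The causes were not tested.

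With the replicate number as a block the counts that passed were 4, 6, 4, 3 and 4, against 4, 7, 5, 3 and 5 without it, and of all 12740 genes 5975, 7362, 3976, 3947 and 2561, against 6359, 7694, 4362, 4383 and 3031. Aco1 between genotypes with vehicle (adjusted p = 0.0534), Fbxl5 with hemin in KO (0.0512) and the Fbxl5 interaction (0.0596) lost the call, and no other call changed. Of 12 libraries 2 correlated best with their own number. limma-voom on recovered fragments passed 6423, 8012, 4689, 4493 and 2976 genes in the 5 comparisons.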
